A study of Mus musculus with 12 samples.

Results

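The 10 genes described here encode the 5 subunits of NF-kB (Rela, Rel, Relb, Nfkb1 and Nfkb2) and 5 of its inhibitors and feedback regulators (Nfkbia, Nfkbib, Nfkbie, Nfkbiz and Tnfaip3). They were chosen by name from 54532 genes measured by RNA sequencing of mouse brain tissue. Tissue was taken 1.5 h, 12 h or 48 h after photodynamic therapy (PDT) with 5-aminolevulinic acid (5-ALA), and each time had 3 libraries, set against 3 control libraries. Treated mice were given 5-ALA at 20 mg/kg and 30 min later red laser light at 635 nm, with a fluence of 20 J/cm2. In the heme pathway cells convert 5-ALA to protoporphyrin IX, a pigment that forms reactive oxygen species under light. Controls carry PBS in their titles and untreated as their treatment, and whether control mice had an injection or light is not stated. All groups share perfusion with 0.9% NaCl. Every sample is labelled BALB/c as well as C57BL/6, and the labels give no brain region, age, sex or link between a library and a single animal. Values are listed in the order of replicates 1, 2 and 3 at 1.5 h, replicates 1 and 2 and a library with no matching number at 12 h (the unnumbered library), replicates 1, 3 and 4 at 48 h, and replicates 1, 2 and 4 in controls.

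NF-kB is a family of transcription factors that act as dimers of the subunits. Inhibitor proteins of the IkB family (Nfkbia, Nfkbib, Nfkbie) hold the dimers in the cytoplasm until the IkB kinases mark them for destruction, after which the dimers enter the nucleus and bind short sites called kappa B sites. In the non-canonical branch, the product of Nfkb2 is processed to a shorter form that pairs with the product of Relb. Several subunit and inhibitor genes are themselves NF-kB targets, so that transcription of the inhibitors, and of the ubiquitin-editing enzyme encoded by Tnfaip3, forms negative feedback. In brain the pathway is known from microglia, astrocytes and endothelium as a route of inflammatory gene expression. RNA levels report neither nuclear entry nor DNA binding.

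At 12 h after PDT 8 of the 10 genes rose relative to controls, to 1.88 to 5.34 times the control mean. Nfkb2, Relb and Nfkbiz showed the highest ratios of means, at 5.22, 4.36 and 5.34. At 48 h Nfkb2, Relb, Rela and Nfkbie rose relative to controls, while Nfkbia and Tnfaip3 stood at ratios of 0.895 and 0.953. At 1.5 h only Relb passed the test, in libraries of which 2 stood apart in RNA composition. Levels are FPKM as deposited, fragments scaled by gene length and by a total for each library that was not its number of reads. Changes are log2 differences of FPKM + 1 with the standard error (SE) of a limma fit over 17664 genes. A gene is said to have risen or fallen where its Benjamini-Hochberg adjusted p in that fit was below 0.05.

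The 12 libraries held 15348579 to 17444654 reads, and 31 to 912 reads stood behind each value of the 10 genes. Mitochondrial transcripts took 12.4% and 9.14% of reads in 1.5 h replicates 1 and 3, against 4.16% in 1.5 h replicate 2 and 4.16% to 6.02% in controls. Their levels relative to each gene's mean over the 12 libraries also declined with gene length. The slopes were -0.104 and -0.060 log2 units for each doubling in length. They were 0.028 in 1.5 h replicate 2 and 0.027 to 0.041 in controls. Neuron markers summed to 674 to 1140 FPKM over the 12 libraries. Choroid plexus markers varied within every group and ran from 3.16 to 995 FPKM in sum. The tissue is bulk, so fewer cells of a type and less RNA per cell cannot be told apart.

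Promoter sequence shows what kappa B sites lie before the RefSeq starts of these genes, some of which lie within the annotated gene. RefSeq (GRCm38.p6) held the 250 bases before the start for 7 of the 10 genes, and the kappa B consensus, searched on both strands, was found in the windows of 5 of them: Nfkb2, Rel, Nfkbia, Nfkbie and Tnfaip3. Of 27025 RefSeq promoters with the same window, 1901 (7.03%) held it. The sequences below are shown because they hold the matches of 4 genes, which stand in capitals. They run 5′ to 3′ on the gene's strand and leave out bases within annotated exons of coding genes. The windows are chr11:23770971-23771219 (minus strand) for Rel, chr12:55492648-55492897 (minus) for Nfkbia, chr17:45555450-45555699 (plus) for Nfkbie and chr10:19015411-19015547 (minus) for Tnfaip3. The Tnfaip3 window lies within the deposited span of that gene (chr10:19000910-19015657), so its matches are inside the gene as deposited.
Rel: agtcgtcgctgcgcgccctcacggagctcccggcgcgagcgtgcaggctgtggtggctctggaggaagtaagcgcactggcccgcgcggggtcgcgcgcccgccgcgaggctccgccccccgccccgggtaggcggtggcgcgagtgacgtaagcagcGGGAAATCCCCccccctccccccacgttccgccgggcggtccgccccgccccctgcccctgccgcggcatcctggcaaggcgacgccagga
Nfkbia: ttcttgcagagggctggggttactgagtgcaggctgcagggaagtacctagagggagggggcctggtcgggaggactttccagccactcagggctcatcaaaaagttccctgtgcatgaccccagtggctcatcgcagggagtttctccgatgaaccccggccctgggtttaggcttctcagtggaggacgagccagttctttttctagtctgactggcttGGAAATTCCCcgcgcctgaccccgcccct
Nfkbie: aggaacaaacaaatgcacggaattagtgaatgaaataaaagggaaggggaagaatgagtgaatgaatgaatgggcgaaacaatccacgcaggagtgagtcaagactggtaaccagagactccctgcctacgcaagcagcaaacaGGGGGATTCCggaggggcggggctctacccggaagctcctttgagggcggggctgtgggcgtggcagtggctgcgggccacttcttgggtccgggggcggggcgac
Tnfaip3: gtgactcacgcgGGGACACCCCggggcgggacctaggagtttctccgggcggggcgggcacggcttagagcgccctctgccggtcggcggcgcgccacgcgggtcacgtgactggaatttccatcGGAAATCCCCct
In Rel a pair of overlapping matches, GGGAAATCCC and GGAAATCCCC, began 92 and 91 bases before the start. Nfkbia had GGAAATTCCC from -29 to -20 and Nfkbie had GGGGGATTCC from -106 to -97. Tnfaip3 had GGGACACCCC from -125 to -116 and GGAAATCCCC from -12 to -3. Nfkb2 had GGGAATTCCC at -39, the overlapping GGAATTCCCC at -38 and GGGGCTTTCC at -11. All of these lay within exons of Nfkb2 itself in GENCODE M21, which begins the gene at 46304320, before the start of 46304737 used here. The consensus was not found in the windows of Rela and Nfkbib, whose starts used here also lie within their deposited spans. A match describes the sequence, and binding was not measured.

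Of the subunits that carry their own activation domain, Rela (chr19:5637483-5648130) encodes the main activating partner of the canonical dimer. It had 18.5, 17.2 and 19.3 FPKM at 12 h, against 9.85, 8.05 and 8.65 FPKM in controls. Its levels were 10.7, 8.86 and 9.95 FPKM at 1.5 h and 15.3, 13.3 and 12.3 FPKM at 48 h. All 12 h libraries lay above all 48 h libraries, and those lay above all controls and all 1.5 h libraries, while 1.5 h and control values overlapped. Rela rose by 0.97 ± 0.12 at 12 h (SE, limma adjusted p = 0.00029) and by 0.57 ± 0.12 at 48 h (adjusted p = 0.011). Without control replicate 2 the 48 h change was 0.51 and did not pass. Rel (chr11:23736847-23770970) encodes c-Rel, best known from lymphocytes and myeloid cells. It was the lowest of the subunits, with 2.07, 1.56 and 1.92 FPKM at 12 h, against 0.588, 0.493 and 0.935 FPKM in controls. The 1.5 h libraries had 0.551, 1.13 and 0.498 FPKM and the 48 h libraries 1.08, 1.3 and 1.38 FPKM. All 12 h libraries were the highest, and 1.5 h replicate 2 stood at about the level of the 48 h libraries. Rel rose by 0.77 ± 0.16 at 12 h (adjusted p = 0.0056), and its change at 48 h was 0.44 ± 0.16 (adjusted p = 0.1). Without 1.5 h replicate 2 that change was also 0.44 and passed.

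Nfkb1 and Nfkb2 encode precursors that are processed to DNA-binding partners without an activation domain, and the precursors themselves act as inhibitors. Nfkb1 (chr3:135584655-135691547), of the canonical branch, had 3.78, 4.16 and 3.54 FPKM at 12 h, against 1.53, 1.3 and 1.6 FPKM in controls. It had 1.28, 1.4 and 1.1 FPKM at 1.5 h and 2.71, 1.65 and 2.12 FPKM at 48 h. The 48 h libraries lay above all controls by a small margin, since the lowest of them stood beside the highest control. Nfkb1 rose by 0.96 ± 0.13 at 12 h (limma adjusted p = 0.00053) and had a change of 0.34 ± 0.13 at 48 h (adjusted p = 0.12). Nfkb2 (chr19:46304737-46312090) had 5.19, 4.75 and 5.5 FPKM at 12 h, against 1.04, 0.896 and 1.03 FPKM in controls. It had 1.28, 1.6 and 1.28 FPKM at 1.5 h and 3.47, 2.72 and 2.78 FPKM at 48 h. The 4 groups did not overlap in Nfkb2, with controls the lowest and 12 h the highest. It rose by 1.63 ± 0.11 at 12 h (adjusted p = 7.1e-06) and by 1.0 ± 0.11 at 48 h (adjusted p = 0.00021), and its change at 1.5 h was 0.26 ± 0.11 (adjusted p = 0.14). In GENCODE M21, which extends Nfkb2 beyond the deposited span, its exons share 531 bases with the antisense gene AC114539.1 and 299 with Psd, also on the opposite strand. The deposited span of Nfkb2 overlaps Psd by 4 bases. Psd averaged 150 ± 67.4 FPKM at 1.5 h, 75.7 ± 11.4 FPKM at 12 h and 45.9 ± 15.9 FPKM at 48 h, against 81.8 ± 13.8 FPKM in controls (SD, n = 3 each), and its part in the Nfkb2 values was not tested. Whether the counting used strand is not given in the sources used here.

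Relb (chr7:19606217-19629438) encodes the partner of the processed Nfkb2 product in the non-canonical dimer. It had 5.2, 4.61 and 5.35 FPKM at 12 h, against 1.41, 1.11 and 0.957 FPKM in controls. At 1.5 h it had 5.11, 2.52 and 3.16 FPKM and at 48 h 2.73, 3.37 and 4.3 FPKM. Every PDT library lay above every control, and 1.5 h replicate 1 stood within the 12 h values. Relb rose at each time, by 1.06 ± 0.20 at 1.5 h (limma adjusted p = 0.048), 1.49 ± 0.20 at 12 h (adjusted p = 0.00041) and 1.04 ± 0.20 at 48 h (adjusted p = 0.0057). The 1.5 h change lost its call when any 1 library other than 1.5 h replicate 2 was left out. It was 0.83 without 1.5 h replicate 1, 1.11 without 1.5 h replicate 3, 1.14, 1.04 and 0.99 without control replicates 1, 2 and 4, and 1.06 without any 1 of the 12 h or 48 h libraries. It was 0.71, not passing, without both 1.5 h replicates 1 and 3, a fit in which replicate 2 stands alone for 1.5 h and is assumed to vary like the other groups.

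**Figure D1:**
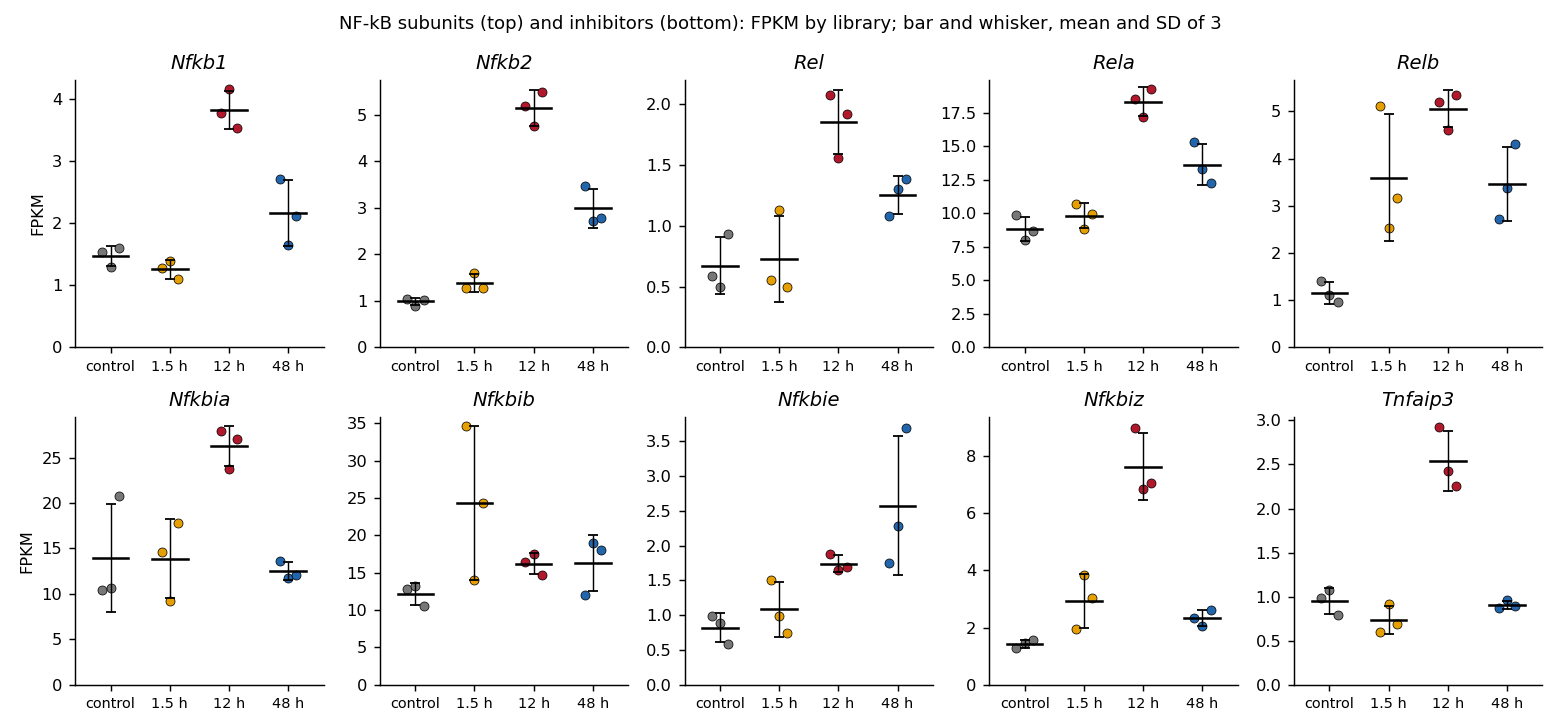
FPKM of each gene (vertical axis, from 0) in every library of the control, 1.5 h, 12 h and 48 h groups (horizontal axis), with subunits in the top row and inhibitors in the bottom row; points are libraries, the bar is the mean and the whisker the SD of 3. The 12 h libraries lie above all controls in all 10 panels, and the 1.5 h libraries of Relb and Nfkbib spread widely.

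Among the inhibitors, Nfkbia (chr12:55489410-55492647) encodes IkB-alpha, the fast feedback inhibitor of the canonical dimer. It had 27.9, 23.8 and 27.1 FPKM at 12 h, against 10.4, 10.7 and 20.8 FPKM in controls. It had 14.6, 9.2 and 17.8 FPKM at 1.5 h and 13.6, 11.8 and 12.1 FPKM at 48 h. Control replicate 4 stood far above the other controls, above all 1.5 h and 48 h libraries and below all 12 h libraries. Nfkbia rose by 0.93 ± 0.26 at 12 h (limma adjusted p = 0.027), with changes of 0.01 ± 0.26 at 1.5 h (adjusted p = 0.98) and -0.08 ± 0.26 at 48 h (adjusted p = 0.88). The 12 h change was 1.23 without control replicate 4. It lost its call without any 1 of the 12 h libraries, at 0.88, 1.0 and 0.91, and without control replicate 1 or 2, at 0.77 and 0.78. At 48 h the change without control replicate 4 was 0.22 and did not pass.

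Nfkbib (chr7:28758251-28767512) encodes IkB-beta, a slower and more persistent inhibitor. At 1.5 h it had 34.6, 14 and 24.4 FPKM, against 12.8, 13.2 and 10.5 FPKM in controls. It had 16.4, 17.5 and 14.7 FPKM at 12 h and 12, 19 and 18 FPKM at 48 h. The 1.5 h values were high in replicates 1 and 3, the libraries that stood apart in composition, and replicate 2 lay just above the highest control. Nfkbib passed the test at none of the 3 times, with changes of 0.86 ± 0.27 at 1.5 h (limma adjusted p = 0.094), 0.39 ± 0.27 at 12 h (adjusted p = 0.36) and 0.38 ± 0.27 at 48 h (adjusted p = 0.42). The 1.5 h change was 0.19 without replicates 1 and 3, and 1.20 with a call without replicate 2. Nfkbib shares 314 exon bases with Ccer2 and 42 with Sirt2, both on the opposite strand. Sirt2 averaged 54 ± 21.3 FPKM at 1.5 h, against 31.2 ± 2.63 FPKM in controls (SD, n = 3 each), and its part in the Nfkbib values was not tested.

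Nfkbie (chr17:45555703-45563169) encodes IkB-epsilon, an inhibitor known for delayed feedback. It had 1.75, 2.28 and 3.69 FPKM at 48 h, against 0.987, 0.893 and 0.582 FPKM in controls. It had 1.51, 0.985 and 0.751 FPKM at 1.5 h and 1.88, 1.65 and 1.69 FPKM at 12 h. Every 12 h and 48 h library lay above every control, and 48 h replicate 4 was the highest of all. It was the only one of the 10 genes with its highest mean at 48 h. Nfkbie rose by 0.94 ± 0.20 at 48 h (limma adjusted p = 0.0094), and its 12 h change of 0.59 ± 0.20 missed the threshold (adjusted p = 0.052). That 12 h change was also 0.59, and passed, without 1.5 h replicate 1 or 2 or without 48 h replicate 1 or 4. It passed under 8 of 20 alternatives in all, which include pseudocount 0.1, length correction, limma-voom and a fit of 2 groups.

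Nfkbiz (chr16:55811375-55838899) encodes IkB-zeta, a nuclear member of the IkB family known mainly as a coactivator of secondary inflammatory genes. It had 8.98, 6.84 and 7.06 FPKM at 12 h, against 1.28, 1.45 and 1.56 FPKM in controls. It had 1.95, 3.84 and 3.03 FPKM at 1.5 h and 2.32, 2.07 and 2.63 FPKM at 48 h. All PDT libraries lay above all controls, and the 12 h libraries lay far above the rest. Nfkbiz rose by 1.82 ± 0.17 at 12 h (limma adjusted p = 5.2e-05), with changes of 0.67 ± 0.17 at 1.5 h (adjusted p = 0.086) and 0.46 ± 0.17 at 48 h (adjusted p = 0.11). The 1.5 h change was 0.51 and passed without 1.5 h replicate 2, and the 48 h change was 0.46 and passed without 1.5 h replicate 1 or 2. Tnfaip3 (chr10:19000910-19015657) encodes a ubiquitin-editing enzyme that ends signalling upstream of the IkB kinases. It had 2.92, 2.43 and 2.26 FPKM at 12 h, against 0.983, 1.08 and 0.791 FPKM in controls. It had 0.604, 0.915 and 0.692 FPKM at 1.5 h and 0.872, 0.96 and 0.892 FPKM at 48 h. The 48 h values lay within the range of the controls. Tnfaip3 rose by 0.86 ± 0.12 at 12 h (adjusted p = 0.00047), with changes of -0.17 ± 0.12 at 1.5 h (adjusted p = 0.32) and -0.03 ± 0.12 at 48 h (adjusted p = 0.9).

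**Figure D2:**
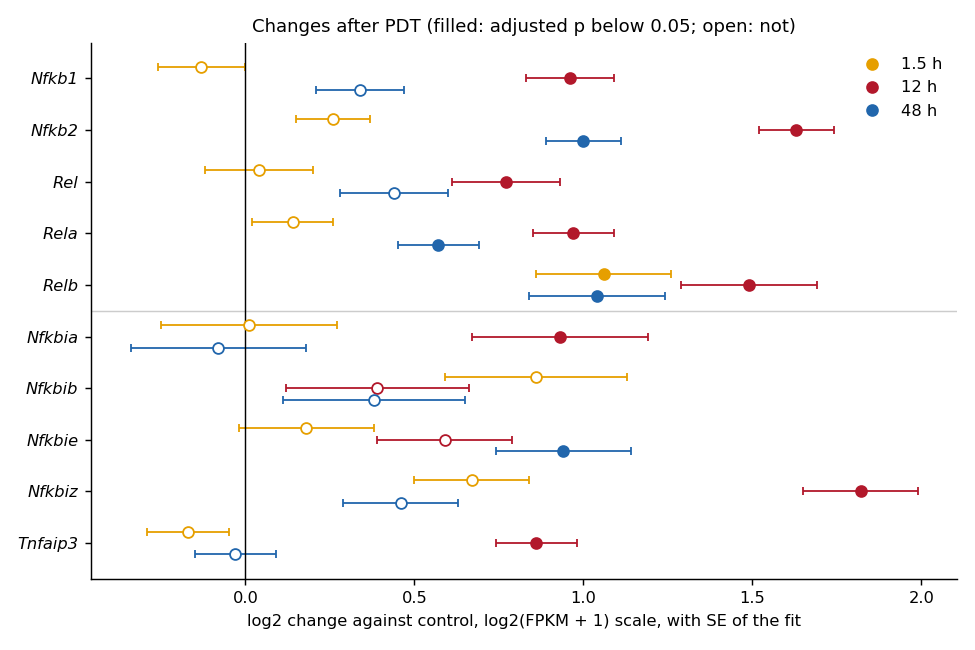
Log2 change against control on the log2(FPKM + 1) scale (horizontal axis) of each gene (rows, subunits above the line and inhibitors below), for 1.5 h, 12 h and 48 h; points are estimates of the limma fit, whiskers its SE, and filled points have an adjusted p below 0.05. At 12 h 8 points are filled, at 48 h 4 and at 1.5 h 1.

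Read against all genes tested, the counts differed by time. At 12 h 8 of 10 members rose and none fell, where 13.3% of all 17664 genes rose, 7.9% fell and 21.2% changed. All 5 subunits and 3 of 5 inhibitors rose, and the median change was 0.95 for the members and 0.00 for all genes. All 12 h libraries lay above all controls in each of the 10 genes, as they did in 28.2% of all genes tested, and 54.4% of all genes had no overlap in either direction. The 2342 rises and 1395 falls over all genes became 2175 and 2431 under quantile normalization, under which 8 members also passed. At 48 h 4 of 10 rose, 3 subunits and 1 inhibitor, where 7.5% of all genes rose, 5.01% fell and 12.5% changed. Their median change was 0.45, against -0.00 for all genes. In 7 of 10 all 48 h libraries lay above all controls, as in 21.1% of all genes, and 43% had no overlap in either direction. At 1.5 h 1 of 10 rose, where 0.419% of all genes rose and 0.555% changed. The median was 0.16, against 0.02 for all genes. In 4 members (Nfkb2, Relb, Nfkbib and Nfkbiz) all 1.5 h libraries lay above all controls, as in 14.6% of all genes, and 26.6% had no overlap in either direction. The 98 genes changed at 1.5 h became 11 without control replicate 1 and 8071 without 1.5 h replicate 2, with 0 to 3 members over the libraries left out in turn. At 12 h and 48 h, 5735 and 4164 genes changed without 1.5 h replicate 2, with 9 and 6 members, and 2293 and 1206 without control replicate 2, with 7 and 3 members. The 3 comparisons share the control libraries.

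Markers of several cell types differed from controls at the same times. Of all genes tested, 13.3% rose and 7.9% fell at 12 h, and 7.5% rose and 5.01% fell at 48 h. The marker counts were not tested against these shares, and a count of 1 gene in such short lists says little beside them. The 1 of 6 oligodendrocyte markers risen at 12 h is near the share of all genes. At 12 h, when the 8 members were higher, microglia markers summed to 48.3 to 51.3 FPKM, against 82.6 to 88.1 FPKM in controls, and 5 of 7 fell. Endothelial markers summed to 48.1 to 61 FPKM, against 26.9 to 29.4 FPKM in controls, with 3 of 6 risen and 1 fallen. Neutrophil markers summed to 5.6 to 21.2 FPKM, against 0.134 to 0.524 FPKM in controls. S100a8 and S100a9 rose, while Ly6g and Camp were at 0 in all 12 h libraries. Of 7 astrocyte markers 2 rose. Oligodendrocyte markers summed to 1557 to 1895 FPKM at 12 h, against 869 to 1031 FPKM in controls, and 1 of 6 (Mobp) rose. Pericyte and smooth muscle markers summed to 29.5 to 30 FPKM, against 40.1 to 43.3 FPKM in controls, with 2 of 5 tested risen and 2 fallen. Lymphocyte markers summed to 6.24 to 12.5 FPKM, against 1.37 to 4.71 FPKM in controls, and Cd3e, 1 of 2 tested, rose. At 48 h endothelial markers summed to 48.2 to 74.1 FPKM, with 1 of 6 risen, and pericyte and smooth muscle markers to 41.1 to 73.9 FPKM, with 2 of 5 risen. Lymphocyte markers summed to 0.586 to 1.47 FPKM at 48 h, and Cd4 fell. At the same time microglia markers summed to 144 to 150 FPKM, with 4 of 7 risen. Monocyte and macrophage markers summed to 36.9 to 97.2 FPKM at 48 h, against 3.66 to 4.5 FPKM in controls, and Lyz2, the 1 of 7 tested, rose. At 48 h 3 of 7 astrocyte markers rose and 1 fell. The part of cell composition in the levels of the 10 genes was not tested.

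Between the times after PDT, 7 of 10 members rose at 12 h relative to 1.5 h, where 16.9% of all genes rose, 16.3% fell and 33.2% changed. They were Nfkb2 (1.37 ± 0.11, limma adjusted p = 4.9e-05), Nfkbiz (1.15 ± 0.17, adjusted p = 0.001), Nfkb1, Tnfaip3, Nfkbia, Rela and Rel. The changes of the last 5 lay between 0.74 and 1.10. In 8 members, these 7 and Nfkbie, all 12 h libraries lay above all 1.5 h libraries, as in 21.7% of all genes, and 41.5% had no overlap in either direction. With replicate 2 as the lone 1.5 h library, and the spread taken from the other groups, the change of Relb was 0.78 and passed, and that of Rel was 0.41 and did not pass. Nfkbia lost its call without 12 h replicate 1 (0.87) or the unnumbered library (0.89). Relb had a change of 0.43 ± 0.20 (adjusted p = 0.11), and passed at 0.66 without 1.5 h replicate 1. Nfkbib had -0.48 ± 0.27 (adjusted p = 0.19), and passed at -0.81 without 1.5 h replicate 2.

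At 48 h relative to 12 h, 6 of 10 fell and none rose, where 9.73% of all genes fell and 15.6% changed. Over all genes 1038 rose and 1719 fell, and under quantile normalization 1693 rose and 1723 fell. Nfkbiz fell by 1.36 ± 0.17 on the log2 scale (limma adjusted p = 0.00051) and Tnfaip3 by 0.89 ± 0.12 (adjusted p = 0.0006). Nfkbia had a change of -1.01 ± 0.26 (adjusted p = 0.024), Nfkb1 -0.62 ± 0.13 (adjusted p = 0.0094), Nfkb2 -0.63 ± 0.11 (adjusted p = 0.0037) and Rela -0.41 ± 0.12 (adjusted p = 0.043). Nfkbia lost its call without any 1 of the 12 h libraries (-0.97, -1.08 and -0.99) and without 48 h replicate 3 (-0.97) or 4 (-0.99). Rela lost its call without 9 of the 12 libraries taken 1 at a time. Its change was -0.41 without 1.5 h replicate 3 or any 1 control, -0.40, -0.45 and -0.37 without the 12 h libraries in turn, and -0.39 and -0.34 without 48 h replicates 3 and 4. Rel (-0.34), Relb (-0.45) and Nfkbie (0.35) missed the threshold. The inhibitors that fell, Nfkbia, Nfkbiz and Tnfaip3, averaged 12.5 ± 0.982, 2.34 ± 0.282 and 0.908 ± 0.0463 FPKM at 48 h, against 14 ± 5.9, 1.43 ± 0.143 and 0.952 ± 0.148 FPKM in controls (SD, n = 3 each).

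At 48 h relative to 1.5 h, 4 of 10 rose, where 8.91% of all genes rose, 8.87% fell and 17.8% changed. Nfkb2 (0.74 ± 0.11), Nfkbie (0.76 ± 0.20), Nfkb1 (0.47 ± 0.13) and Rela (0.43 ± 0.12) passed, with limma adjusted p of 0.0015, 0.023, 0.032 and 0.034. With replicate 2 as the lone 1.5 h library, and the spread taken from the other groups, Nfkb2 (0.61) and Rela (0.56) passed and Nfkb1 and Nfkbie did not. Nfkb1 lost its call without 1.5 h replicate 1 (0.48) or 3 (0.42), 48 h replicate 1 (0.35) or 4 (0.48), or control replicate 1 (0.47). Rela lost it without 1.5 h replicate 3 (0.44), 12 h replicate 2 (0.43), 48 h replicate 1 (0.35) or 3 (0.44), or control replicate 4 (0.43). Nfkbie lost it without 1.5 h replicate 3 (0.64) or 48 h replicate 4 (0.54). Without 1.5 h replicate 2, Rel passed at 0.56 and Nfkbib at -0.82.

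The make-up of the subunit RNA also differed by time. FPKM is scaled by the listed gene length, and comparisons between genes depend on that length (12061 bases for Nfkb1 and 2716 for Rela). A trend with length relative to the other libraries remained, with slopes of -0.104 and -0.060 in 1.5 h replicates 1 and 3. Its part in the shares and ratios below was not tested. The summed FPKM of the 5 subunits was 16.8 ± 1.84 at 1.5 h, 34.2 ± 1.75 at 12 h and 23.5 ± 1.59 at 48 h, against 13.1 ± 1.28 in controls (SD, n = 3 each). Rela was the most abundant subunit in all 12 libraries. Its share of the sum was 58.6 ± 3.12% at 1.5 h, 53.6 ± 0.598% at 12 h and 57.8 ± 3.67% at 48 h, against 67.3 ± 1.42% in controls. The shares of Nfkb2 and Relb were 15 ± 0.363% and 14.8 ± 0.412% at 12 h, against 7.51 ± 0.303% and 8.81 ± 1.35% in controls. The ratio of Nfkb2 to Nfkb1 was 1.1 ± 0.091 at 1.5 h, 1.36 ± 0.208 at 12 h and 1.41 ± 0.204 at 48 h, against 0.67 ± 0.0254 in controls. The lowest ratio of a PDT library was 1 and the highest of a control 0.691. The ratio of Relb to Rela was 0.36 ± 0.103 at 1.5 h, 0.276 ± 0.00685 at 12 h and 0.262 ± 0.0864 at 48 h, against 0.131 ± 0.0176 in controls, with no overlap between PDT and control libraries. The ratio of Nfkbia to Rela was 1.4 ± 0.374 at 1.5 h, 1.43 ± 0.0697 at 12 h and 0.923 ± 0.0582 at 48 h, against 1.6 ± 0.709 in controls. All 48 h ratios lay below the lowest control, 1.06. These ratios are descriptions without a test.

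**Figure D3:**
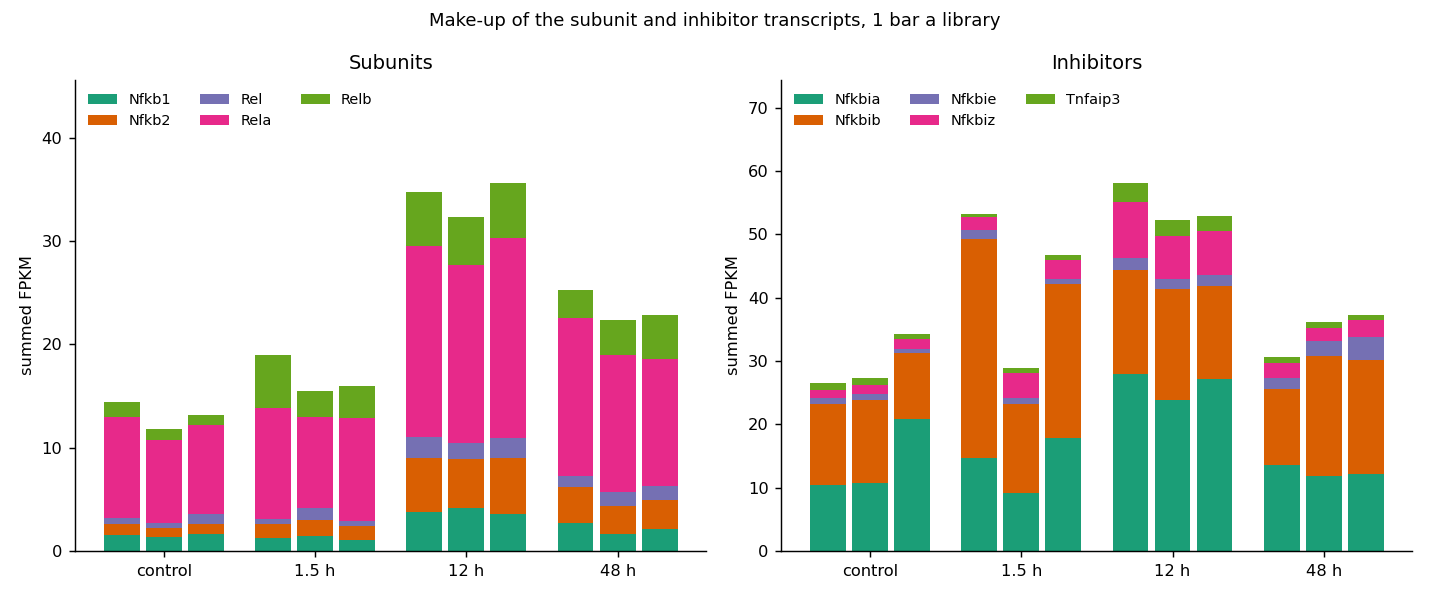
Summed FPKM (vertical axis, from 0) of the 5 subunits (left panel) and the 5 inhibitors (right panel), 1 bar a library, grouped by control, 1.5 h, 12 h and 48 h, with colours for genes. The subunit bars are highest at 12 h (32.2 to 35.6), and Nfkbib fills most of the bars of 1.5 h replicates 1 and 3.

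The inhibitors summed to 42.9 ± 12.6 FPKM at 1.5 h, 54.3 ± 3.27 FPKM at 12 h and 34.7 ± 3.58 FPKM at 48 h, against 29.4 ± 4.25 FPKM in controls. Nfkbia and Nfkbib made up most of the sum in every library. Nfkbib took 55.2 ± 8.69% at 1.5 h, 29.8 ± 3.17% at 12 h and 46.7 ± 6.8% at 48 h, against 42.5 ± 10.2% in controls. The share of Nfkbiz was 14 ± 1.28% at 12 h, against 4.89 ± 0.365% in controls. Nfkbie took 7.31 ± 2.25% at 48 h, against 2.9 ± 1.06% in controls.

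The rest of the pathway was read from lists by role. These lists were drawn up with earlier results of these data known. The shares of all genes tested to set beside their counts against control are those above, 0.419% risen at 1.5 h, 13.3% risen and 7.9% fallen at 12 h, and 7.5% risen and 5.01% fallen at 48 h. Of 8 activating ligands tested (of 12), 4 rose at 12 h and 2 at 48 h. At 1.5 h none passed in the limma fit, and 1 passed with limma-voom on recovered reads, where 49 of 17664 genes passed. An unadjusted limma p below 0.05 was found for 4, with Tnf, Il1a and Il1b higher than in controls and Il33 lower. The share of all genes below that unadjusted threshold is not given, here or for the lists below. Such counts therefore cannot be read against all genes. Tnf, the tumour necrosis factor gene, had 1.99, 1.74 and 1.11 FPKM at 12 h, against 0.0352 FPKM in control replicate 1 and a listed 0 in the other controls (limma change 1.35 ± 0.14, adjusted p = 7.7e-05). Il1b, the interleukin-1 beta gene, had 2.02, 1.4 and 2.8 FPKM at 12 h, against 0.0909, 0.0594 and 0.06 FPKM in controls (1.50 ± 0.33, adjusted p = 0.0086). Its 1.5 h values of 2.5, 0.931 and 5.17 FPKM lay on both sides of the 12 h values, with a change of 1.70 ± 0.33 that missed the threshold (adjusted p = 0.052). Lta rose by 0.45 ± 0.12 at 12 h and Il33 by 0.95 ± 0.22 at 48 h.

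Of 12 receptors and coreceptors tested (of 15), 1 rose at 1.5 h (all genes 0.419%), 9 at 12 h (13.3%) and 9 at 48 h (7.5%), with median changes of 0.09, 0.92 and 1.15. Tnfrsf12a, the receptor of the cytokine TWEAK and an activator of the non-canonical branch, rose at all 3 times, to 12.9 ± 4.71, 26.3 ± 4.39 and 26 ± 3.11 FPKM, against 2.63 ± 0.36 FPKM in controls. Cd14, the coreceptor of bacterial lipopolysaccharide, averaged 92.2 ± 16.7 FPKM at 12 h and 40.5 ± 1.16 FPKM at 48 h, against 1.74 ± 0.403 FPKM in controls. Tnfrsf1a, a receptor of tumour necrosis factor, averaged 15.9 ± 1.44 FPKM at 12 h, against 2.18 ± 0.0561 FPKM in controls. Tlr2, a receptor of bacterial lipoproteins, averaged 6.71 ± 1.71 FPKM at 48 h, against 0.36 ± 0.128 FPKM in controls. All of these rises had adjusted p of at most 0.007 by limma.

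Among 25 kinases and adaptors tested (of 27), 9 rose and 1 fell at 12 h and 2 rose at 48 h, the last a share near the 7.5% of all genes, with median changes of -0.08 at 1.5 h, 0.22 at 12 h and 0.12 at 48 h. At 1.5 h none passed with limma or limma-voom, and 6 had an unadjusted limma p below 0.05. Of these, Tab1, Myd88 and Bcl10 were higher than in controls, and Ikbkg, Tab2 and Traf6 were lower. Myd88, the adaptor of Toll-like and interleukin-1 receptors, rose by 1.17 ± 0.11 at 12 h and 1.35 ± 0.11 at 48 h. Birc3, a ubiquitin ligase of the tumour necrosis factor pathway, averaged 1.46 ± 0.173 FPKM at 12 h and 0.743 ± 0.172 FPKM at 48 h, against 0.27 ± 0.0262 FPKM in controls. Traf5, an adaptor of the tumour necrosis factor receptor family, rose by 1.26 ± 0.17 at 12 h. Ikbkg, the regulatory subunit of the IkB kinase complex, fell to 3.13 ± 0.135 FPKM at 12 h, against 4.86 ± 0.426 FPKM in controls (limma adjusted p = 0.036). Among 19 genes of ubiquitin editing and other restraint tested (of 20), 5 rose and 2 fell at 12 h, and 1 rose and 1 fell at 48 h. Their falls at 12 h and both counts at 48 h were near the shares of all genes, 7.9% at 12 h and 7.5% risen and 5.01% fallen at 48 h. At 1.5 h none of them passed with limma or limma-voom, and 7 had an unadjusted limma p below 0.05. Of these, Otulin, Sharpin, Nfkbid and Nfkbil1 were higher than in controls, and Cyld, Itch and Otud7b were lower. Bcl3, a nuclear IkB family member, had 4.56, 4.48 and 5.76 FPKM at 12 h and 7.46, 3.6 and 2.82 FPKM at 48 h, against 0.21, 0.137 and 0.0693 FPKM in controls. Nfkbid, another nuclear IkB family member, rose by 1.25 ± 0.16 at 12 h and Peli1, a ubiquitin ligase of Toll-like receptor signalling, by 1.30 ± 0.14. Tnip1, a partner of the Tnfaip3 product, had a change of -0.37 ± 0.10 at 12 h. Cyld, a deubiquitinase that restrains the pathway, averaged 5.63 ± 0.403 FPKM at 12 h and 5.47 ± 0.798 FPKM at 48 h, against 9.98 ± 1.16 FPKM in controls, and fell at both times.

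Of 27 known target genes tested (of 33), 2 rose at 1.5 h (all genes 0.419%), 21 at 12 h (13.3%) and 19 at 48 h (7.5%), with median changes of 0.09, 1.95 and 0.98. At 48 h relative to 12 h, 11 fell and 5 rose, where 9.73% of all genes fell and 5.88% rose. Ptgs2, the inducible cyclooxygenase, had 11.6, 17.9 and 42.2 FPKM at 1.5 h, 127, 103 and 80.5 FPKM at 12 h and 27.8, 23.6 and 38.1 FPKM at 48 h, against 2.04, 1.86 and 3.7 FPKM in controls. It rose at all 3 times. Gadd45b, a stress-response gene, rose at 1.5 h by 2.25 ± 0.36 (limma adjusted p = 0.026). Ccl3, a chemokine of myeloid cells, had 64, 56.3 and 61.2 FPKM at 12 h, against 0.0747 FPKM in control replicate 4 and a listed 0 in the other controls. Socs3, a feedback inhibitor of cytokine signalling, averaged 28.3 ± 6.7 FPKM at 12 h, against 1.01 ± 0.156 FPKM in controls. Cd44, the hyaluronan receptor, and Bcl2a1d, a survival gene with near-identical copies that can share its reads, rose by 3.21 ± 0.21 and 2.49 ± 0.22 at 48 h. Cd44 averaged 11.3 ± 2.9 FPKM at 48 h and 4.36 ± 1.25 FPKM at 12 h. Whether these genes were regulated by NF-kB in this tissue was not measured.

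**Figure D4:**
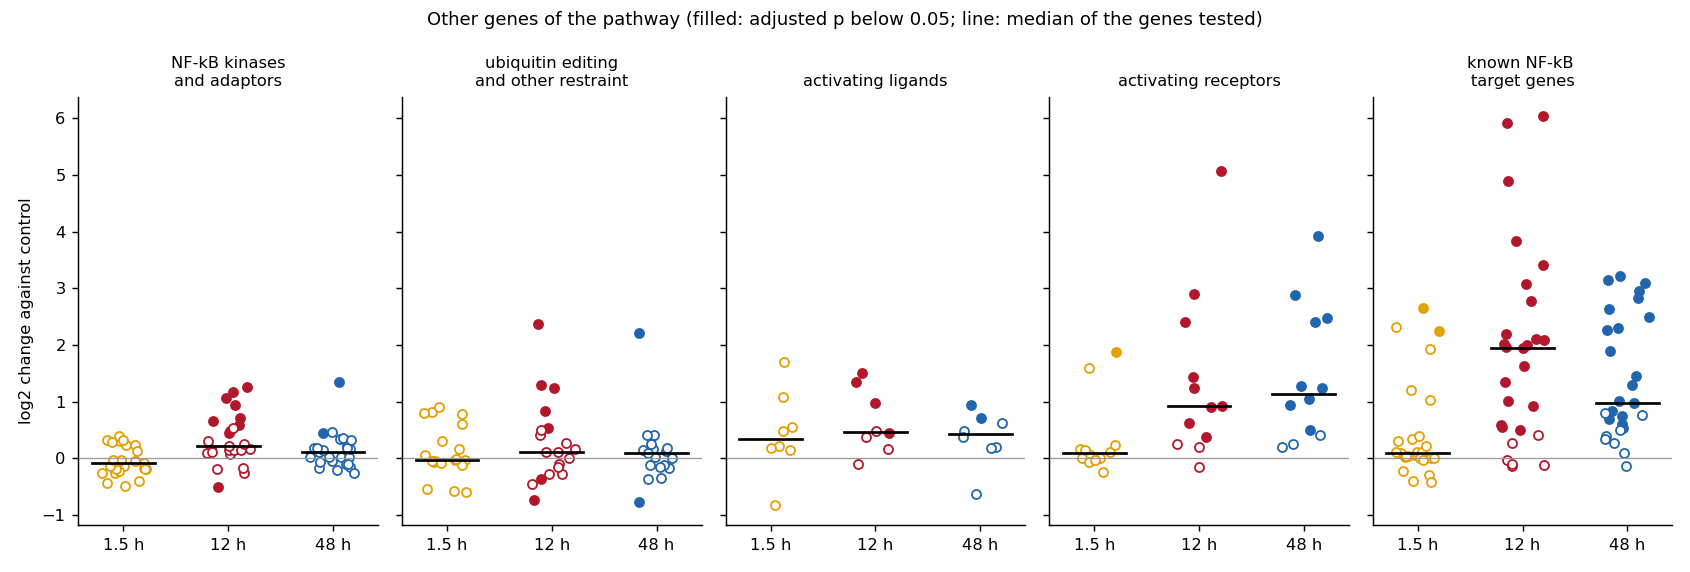
Log2 change against control on the log2(FPKM + 1) scale (vertical axis) of every tested gene of 5 lists (panels), at 1.5 h, 12 h and 48 h; each point is a gene, filled where its limma adjusted p was below 0.05, and the line is the median of the genes tested. Target genes at 12 h have the highest median, 1.95, and the medians of kinases and adaptors lie between -0.08 and 0.22.

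The level of Nfkbia over the 12 libraries was most like that of Kcne4, a potassium channel subunit, with Pearson r of 0.937 on the log2 scale. Next came Txnip (0.930), which encodes a binding partner of thioredoxin, Nts (0.893), the neurotensin gene, the immunoglobulin segment Igkj5 (0.892) and Sgk1 (0.892), a kinase gene induced by serum and glucocorticoids. Kcne4 was low, from 0.277 to 1.77 FPKM. Igkj5 was listed at 0 in all 1.5 h and 48 h libraries and in control replicates 1 and 2. Among the other members r with Nfkbia ran from 0.029 for Nfkbie and 0.052 for Nfkbib to 0.716 for Nfkbiz. As with Nfkbia, control replicate 4 was the highest control for each of Kcne4, Txnip, Nts, Igkj5 and Sgk1. It had 0.839, 6.48, 3.35, 1.36 and 44 FPKM of these in turn. The other controls had 0.413 and 0.277 FPKM of Kcne4, 2.33 and 2.85 FPKM of Txnip, 2.41 and 0.636 FPKM of Nts and 15.1 and 20.4 FPKM of Sgk1. The 12 points share the 4 groups and the same libraries, so these r are a description and no test was made.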

How the data were processed

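RNA of mouse brain tissue was sequenced in 12 libraries, 3 in each of 4 groups. Per the submitters' processing notes, reads were aligned with Bowtie 0.12.2 and the build was mm8; the counting tool, annotation and strandedness are not given in the sources used here. The deposited values are FPKM per gene as the authors made them, with gene coordinates per the file headers. Of 54409 gene IDs shared with GENCODE M21, 98.33% had the same start and end on GRCm38, the build used for positions. The product of FPKM and length came out, for 100.0% of values and within 0.05 of a step, as multiples of 1 step per library, which gave the reads per library. The scaling totals behind the FPKM ran from 12146484 to 18782123 and were not those reads, so the deposited values carry a scaling of the authors', and no further one was applied.

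One 12 h column carries a number that no title of its group has and was assigned to its group only. Within groups, libraries correlated at 0.919 to 0.987. The squared difference between a pair of them averaged, over genes, at least 8.3 times the variance of counting. Genes above 0.5 FPKM in at least 3 libraries (17664) entered 1 limma fit of all 12 libraries on the log2(FPKM + 1) scale, with a trended prior (8 residual and 3.09 prior degrees of freedom; R 4.3.3, limma 3.58.1). Benjamini-Hochberg adjustment ran over all tested genes of each of 6 contrasts. The log2(FPKM + 1) scale understates changes of low genes. Since the labels do not tie libraries to separate animals, a p-value speaks only of the spread among these libraries.

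The text names all 10 members, from each pathway list and time the 3 rising and 2 falling genes with the smallest p, and the 5 genes most like Nfkbia. The members and lists were chosen with earlier results of these data known. Alternatives were pseudocount 0.1, no filter, a stricter filter (above 1 FPKM in at least 6 libraries), quantile normalization, a gene-length correction, limma-voom on the recovered reads, fits of 2 groups, a replicate block, and leaving out each library, or 1.5 h replicates 1 and 3. The fit was also run on simulated counts with a fixed spread around control means. That setting had no libraries that stand apart, unlike these data. Promoter sequences are from RefSeq, GRCm38.p6. A looser form of the kappa B motif was also counted and is not reported here.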

Additional observations from a re-analysis of the deposited data

Results flagged for a closer look

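The change against control differed between times for several members, by the limma test of the difference between the times themselves over all 17664 genes. At 12 h relative to 1.5 h the log2 change was 1.37 for Nfkb2, 1.15 for Nfkbiz, 1.10 for Nfkb1, 1.03 for Tnfaip3, 0.92 for Nfkbia, 0.84 for Rela and 0.74 for Rel, and each of these genes was higher in 3 of 3 libraries than in any library of the earlier time, as were 21.7% of all genes tested. At 48 h relative to 12 h it was -1.36 for Nfkbiz, -1.01 for Nfkbia, -0.89 for Tnfaip3, -0.63 for Nfkb2, -0.62 for Nfkb1 and -0.41 for Rela. At 48 h relative to 1.5 h it was 0.76 for Nfkbie, 0.74 for Nfkb2, 0.47 for Nfkb1 and 0.43 for Rela. Nfkb1, Nfkb2 and Rela are on all 3 lists. In these genes the 48 h libraries lay between those of 1.5 h and 12 h. The calls that were lost when 1 library was left out are given with the comparisons. At 48 h relative to 1.5 h Nfkb1 lost its call under 11 of 21 alternatives, left-out libraries included. Among them were no filter, quantile normalization, length correction and the fit of 2 groups. Nfkbie and Rela lost theirs there under 7 of 21 each. At 48 h relative to 12 h Rela lost its call under 12 of 20, among them quantile normalization and limma-voom. Nfkb1, Nfkb2, Nfkbiz and Tnfaip3 passed at 12 h relative to 1.5 h and at 48 h relative to 12 h whichever 1 library was left out.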

How the results depend on the processing

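At 12 h against control Nfkb1, Nfkb2, Rela, Relb and Nfkbiz passed under all 20 alternatives and Tnfaip3 under all 19 in which it was tested. At 48 h Nfkb2 did so. Moved counts were as follows. Without a filter 27 genes and 0 members changed at 1.5 h, and 2 members at 48 h against 1.5 h. Quantile normalization gave 2 members at 48 h against 1.5 h, and limma-voom 49 genes and 0 members at 1.5 h. Fits of 2 groups gave 5 genes and 0 members at 1.5 h, 7279 genes at 12 h, 3789 at 48 h, 2384 at 12 h against 1.5 h, and 559 genes and 0 members at 48 h against 1.5 h. The numbers in the titles were shared by 11 pairs of libraries, whose deviations correlated at -0.264 to 0.156. The labels do not say what the numbers mark, and whether they mark a batch was not tested. With the replicate block, and without the unnumbered library, 4, 1321 and 724 genes changed at 1.5 h, 12 h and 48 h, with 0, 6 and 1 members. Between times the replicate block gave 1134, 470 and 866 genes and 5, 1 and 1 members for 12 h against 1.5 h, 48 h against 12 h and 48 h against 1.5 h. Without 1.5 h replicates 1 and 3, which leaves 1 library at 1.5 h, 23 genes and 0 members changed at 1.5 h, 2409 genes at 12 h against 1.5 h, and 2 members at 48 h against 1.5 h.

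With each library left out in turn, changed genes ran from 11 to 8071 at 1.5 h, 2293 to 5735 at 12 h, 1206 to 4164 at 48 h, 3408 to 9667 for 12 h against 1.5 h, 1614 to 4940 for 48 h against 12 h and 1877 to 7812 for 48 h against 1.5 h, each highest without 1.5 h replicate 2. Changed members ran from 0 to 3, 7 to 9, 3 to 6, 6 to 8, 4 to 6 and 1 to 6 in that order.

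Signs turned only in changes that did not pass. Length correction gave 0.20 for Nfkb1, -0.06 for Rela, -0.29 for Nfkbia and 0.01 for Tnfaip3 at 1.5 h, 0.05 for Tnfaip3 at 48 h, and 0.02 for Relb and 0.11 for Nfkbia at 48 h against 1.5 h. Quantile normalization gave -0.17 for Nfkbia at 1.5 h, 0.04 for Nfkbib at 48 h against 12 h and 0.05 for Nfkbia at 48 h against 1.5 h, and limma-voom gave 0.01 for Relb at 48 h against 1.5 h. Without 1.5 h replicates 1 and 3, Nfkbia had -0.49 at 1.5 h, Nfkbib 0.19 at 12 h against 1.5 h, and Relb 0.33, Nfkbia 0.40, Nfkbib 0.18 and Tnfaip3 -0.01 at 48 h against 1.5 h. With 1 library left out, Rel at 1.5 h ran from -0.12 to 0.15, Nfkbia from -0.18 to 0.31 at 1.5 h, -0.24 to 0.22 at 48 h and -0.34 to 0.10 at 48 h against 1.5 h, Tnfaip3 at 48 h from -0.09 to 0.02, Nfkbib at 48 h against 12 h from -0.12 to 0.19 and Relb at 48 h against 1.5 h from -0.19 to 0.21. The cause was not tested. The lowest values rest on 31 reads for Nfkbie, 50 for Rel and 51 for Nfkb2, where counting error is largest among the members.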
